A study of Rattus norvegicus with 8 samples.

Results

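The Spata (spermatogenesis associated), Spag (sperm associated antigen) and Tex (testis expressed) genes were followed in rat testis after a dose of Adjudin, an indazole known for breaking the junctions between Sertoli cells and spermatids, so that germ cells leave the epithelium early. Members were the probe sets with exactly 1 gene symbol in the array's annotation, that symbol being Spata, Spag or Tex followed directly by a digit. The array held 46 such probe sets of 32 genes, out of 20826 probe sets of 14217 genes with a single symbol. Of these, 41 probe sets of 31 genes reached a deposited signal of 50 on 2 arrays or more and were measured further. The rule uses no measured value beyond that minimum.

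Whole testis RNA was hybridised to 8 Affymetrix rat expression arrays, 1 per sample. The control group held 3 arrays of untreated adult Sprague-Dawley rats, and the treated groups held 2 arrays taken 8 h after, and 3 arrays taken 4 d after, a single Adjudin dose of 50 mg/kg body weight by gavage. No vehicle group and no genetic change is named in the labels, and nothing there says whether the arrays of a group stand for different animals, so the p-values cover no more than the scatter among these 8 samples, which may be technical. In whole tissue, fewer cells of a type and less RNA per cell cannot be told apart.

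The 3 names were given to genes for where their products were found rather than for a shared structure, and their products do many different things. In the testis, spermatogonia, which include the stem cells, divide and become spermatocytes. Spermatocytes pass through meiosis and become round spermatids. These then build an acrosome, a condensed nucleus and a tail as elongating spermatids. Several members act in those spermatid structures: Spag4 is a nuclear envelope protein that helps to anchor the tail, Spata6 is needed for the piece connecting head and tail, Spata19 and Spata33 belong to the mitochondria of the sperm midpiece, Spag16 is part of the axoneme, and Spata46 shapes the sperm head. Others act in meiosis or in the bridges between germ cells (Tex14, Tex15), and some carry out tasks common to many cells, such as the spindle protein Spag5, the kinase scaffold Spag9, the ribosome assembly factor Tex10 and the autophagy receptor Tex264.

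Values are MAS 5.0 signals as deposited, on a linear scale, and differences are in log2(signal + 16), which understates changes of dim probe sets. The 8 arrays shared a 2% trimmed mean of 250, and 51.7% to 59.0% of their probe sets reached a signal of 50. Across the 19808 probe sets tested, replicate arrays had pairwise correlations of 0.954 to 0.978. According to the dates in their settings files, the arrays were hybridised in 3 runs. Control 1, 8 h 1 and 4 d 1 formed run 1, and control 3, 8 h 2 and 4 d 3 formed run 3. Only control 2 and 4 d 2 were in run 2, for which the settings name another version of the washing and staining protocol. In run 3, 51.7% to 54.0% of the probe sets of an array reached 50, and the array medians were 54.2 to 60.95. For the arrays of runs 1 and 2 these were 57.6% to 59.0% and 68.8 to 71.9. Tests were made with limma over all 19808 probe sets with Benjamini-Hochberg adjustment at 0.05, with no block and, as an alternative, with the run as a block.

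At 4 d, 7 probe sets of 6 member genes were lower than in the controls and 0 were higher, while 34 did not pass. These 6 genes were Tex46, Tex13c3, Spata20, Spata21, Spata46 and Spag4. Their share was 17.1% of the 41 measured, where 3.71% of all probe sets tested were lower and 6.13% were higher. The median log2 difference was -0.28 over the 41 measured probe sets and 0.036 over all those tested. With the run as a block, 19 member probe sets of 15 genes were lower and 3 were higher, beside 9.17% and 13.3% of all probe sets. The unblocked count fell to 3 without 4 d replicate 1, where 1.61% of all probe sets tested were lower. It fell to 4 without 4 d replicate 2 (2.68% of all) or control replicate 2 (2.15%). Without the arrays of run 2 it was 2 (0.89%), and without those of run 3 it was 14 (4.52%).

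Tex46, a gene for which no role is given here, had the largest difference. Its signals were 2339, 2221 and 2888 in the controls, 2302 and 2710 at 8 h, and 787, 719 and 1256 at 4 d. Every 4 d array lay below every other array, and the 8 h arrays lay within the range of the controls. The mean went from 2483 ± 356 (SD, n = 3) to 921 ± 293 (SD, n = 3), a log2 difference of -1.45 (SE 0.20; limma adjusted p = 0.00240), which left 36.6% of the control level on the log2(signal + 16) scale. Within runs 1, 2 and 3 the log2 difference was -1.55, -1.61 and -1.19.

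Tex13c3, an X-linked member of the Tex13 family, was much dimmer. It gave 205, 211 and 257 in the controls, 194 and 205 at 8 h, and 75.4, 80.5 and 87.2 at 4 d. The 4 d arrays again stood below all others, and both 8 h arrays lay just below the lowest control. The mean fell from 224 ± 28.5 to 81.0 ± 5.92 (SD, n = 3 each), a log2 difference of -1.30 (SE 0.16; limma adjusted p = 0.00111). Within the runs it was -1.27, -1.23 and -1.40. The calls of Tex46 and Tex13c3 at 4 d were kept under all 20 alternatives tried, with adjusted p up to 0.0364 and 0.0290.

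Spata20, a protein with a thioredoxin-like domain, was measured by a pair of probe sets, and both were lower. Probe set 1392428_at gave 6904, 7611 and 8383 in the controls, 6825 and 8027 at 8 h, and 3898, 4451 and 4672 at 4 d (log2 difference -0.81, SE 0.13; limma adjusted p = 0.00459). Probe set 1394403_at gave 8199, 8287 and 10805 in the controls, 8201 and 10451 at 8 h, and 4727, 5498 and 6655 at 4 d (-0.69, SE 0.17; limma adjusted p = 0.0310). In both the 4 d arrays lay below all controls and both 8 h arrays. Their log2 signals correlated with r = 0.965 over the 8 arrays, given as a description, since the arrays and groups are shared. The call of 1394403_at was lost without control 1, 2 or 3, 4 d 1 or 4 d 2 (adjusted p of 0.0579 to 0.132).

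Spata21, an EF-hand protein of the testis, gave 5570, 5351 and 7548 in the controls, 5478 and 7319 at 8 h, and 3274, 3442 and 4129 at 4 d. No 4 d array reached the lowest control, and the log2 difference was -0.76 (SE 0.17; limma adjusted p = 0.0227). Spata46 gave 1703, 1863 and 2374 in the controls, 1905 and 2247 at 8 h, and 1063, 1456 and 1132 at 4 d, a log2 difference of -0.69 (SE 0.17; limma adjusted p = 0.0283). Of the 7 probe sets its difference varied most between runs, with -0.67, -0.35 and -1.06, yet the groups did not overlap. Spag4 gave 5469, 5822 and 6314 in the controls, 5687 and 6439 at 8 h, and 3994, 4228 and 4310 at 4 d. The spread of Spag4 was small, and its log2 difference was -0.49 (SE 0.11; limma adjusted p = 0.0249), with -0.45, -0.46 and -0.55 in the runs.

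These last calls rested on few arrays. Spata21 did not pass without 4 d 1 or 4 d 2 (adjusted p of 0.0793 to 0.0984), and Spata46 did not pass without control 2, control 3, 4 d 1 or 4 d 3 (0.0676 to 0.121). Spag4 did not pass without any 1 of the 6 control and 4 d arrays (0.0505 to 0.114). With the run as a block all 7 probe sets passed, with adjusted p from 9.16e-06 for Spata20 to 0.00205 for Spata46. After the medians of the arrays were equalised, only Tex46 and Tex13c3 passed.

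**Figure D1:**
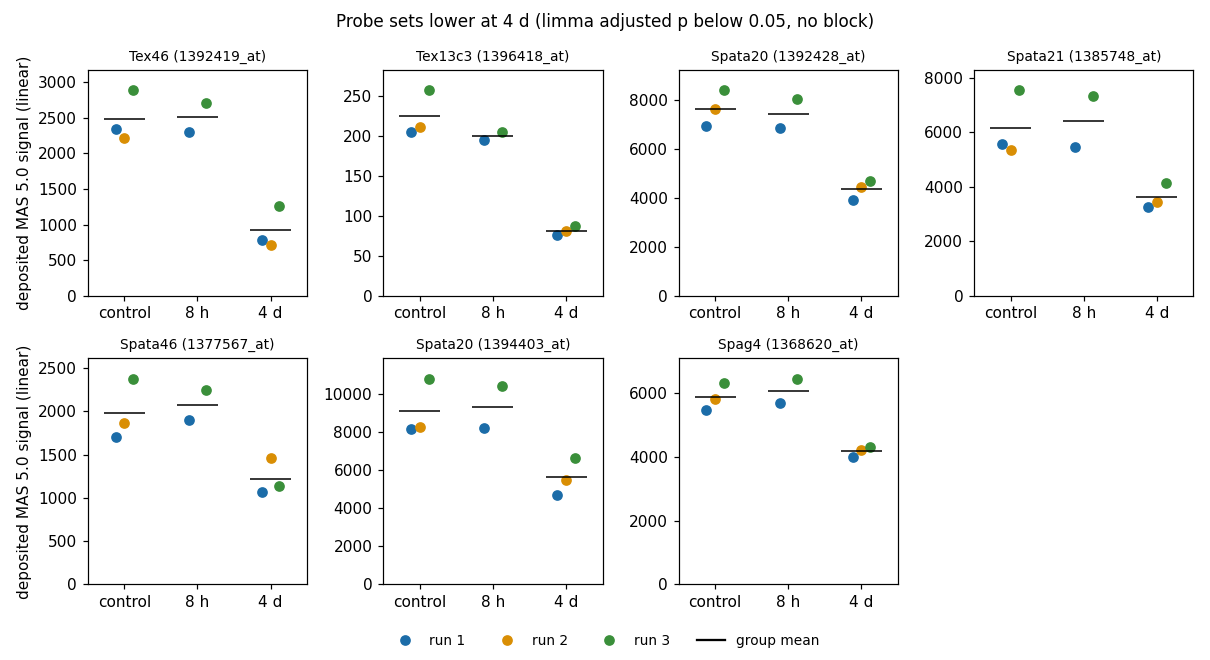
Deposited MAS 5.0 signal (linear axis from 0) of the 7 member probe sets that were lower at 4 d, by group; each point is 1 array, coloured by hybridisation run, and the bar is the group mean. In every panel the 3 arrays at 4 d lie below the 3 control and 2 arrays at 8 h; for Tex46 they lie between 719 and 1256 against 2221 to 2888 in the controls.

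To set regulatory sequence beside the genes that were lower, the 250 bases before a RefSeq transcription start were read for 29 of the 31 measured genes (RefSeq, build GRCr8). On both strands they were searched for the cyclic AMP response element TGACGTCA and its core TGACG, which the first contains, for CCAAT, for TATAAA and for GTTGCC, one arm of the X-box. Such elements are common in promoters of genes used in spermatids, and the spermatid activator Crem binds the first. Windows of 4 of the called genes are shown in lower case, 5′ to 3′ on the gene's strand, with matches in capitals: Spag4 at chr3:165040929-165041178 (plus strand), Tex13c3 at chrX:122016954-122017203 (plus strand), Spata20 at chr10:79931251-79931500 (minus strand) and Tex46 at chr5:154132513-154132762 (plus strand).
Spag4: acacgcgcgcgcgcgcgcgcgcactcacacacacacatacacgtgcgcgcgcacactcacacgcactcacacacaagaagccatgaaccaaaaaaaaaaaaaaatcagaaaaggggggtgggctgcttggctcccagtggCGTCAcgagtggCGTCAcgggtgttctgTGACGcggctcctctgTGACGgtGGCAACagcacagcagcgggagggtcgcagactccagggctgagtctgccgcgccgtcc
Tex13c3: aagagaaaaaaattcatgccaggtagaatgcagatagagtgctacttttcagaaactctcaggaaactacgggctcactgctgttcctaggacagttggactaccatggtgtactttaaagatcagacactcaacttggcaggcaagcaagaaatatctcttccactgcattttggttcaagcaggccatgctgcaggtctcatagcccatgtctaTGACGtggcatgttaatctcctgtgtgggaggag
Spata20: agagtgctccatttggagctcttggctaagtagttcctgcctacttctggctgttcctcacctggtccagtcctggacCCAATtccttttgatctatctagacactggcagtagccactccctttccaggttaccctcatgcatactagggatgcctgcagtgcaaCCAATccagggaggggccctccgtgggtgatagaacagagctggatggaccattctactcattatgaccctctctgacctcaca
Tex46: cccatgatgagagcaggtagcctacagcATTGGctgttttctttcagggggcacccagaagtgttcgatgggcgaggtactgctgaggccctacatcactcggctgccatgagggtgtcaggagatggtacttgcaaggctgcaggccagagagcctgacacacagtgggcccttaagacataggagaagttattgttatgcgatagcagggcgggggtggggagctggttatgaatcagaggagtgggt

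The Spag4 window held TGACG at 4 places, beginning 110, 98, 82 and 66 bases before the start, the first pair on the opposite strand, and GTTGCC on the opposite strand at 59 bases. Tex13c3 held TGACG once, at 34 bases before its start. Spata20 held CCAAT at 172 and 84 bases and Tex46 held it at 222 bases on the opposite strand. The windows of Spata46 held CCAAT at 160 and 145 bases, and those of Spata21 held none of the 5 elements.

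Over the 15 genes that were lower with the run as a block, 5 held TGACG, 6 held CCAAT, 3 held GTTGCC, 1 (Spata7) held TGACGTCA and 0 held TATAAA. Among the other 14 measured genes with a window, the counts in the same order were 3, 5, 0, 0 and 1. Over all 27457 genes with a window the shares were 20.0%, 36.1%, 10.8%, 1.78% and 14.1%. The Spag4 and Spata20 windows lie inside the RefSeq gene record, before a start within it, the Spata21 window overlaps the beginning of its record, and those of Spata46, Tex13c3 and Tex46 end where the record begins. A match describes letters in the window and is no evidence of binding.

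A group of 14 probe sets of 10 genes, put together with the values known, encodes proteins of spermatids or sperm; not all of them have a known part in a structure. Of these 14, 5 were lower at 4 d, 0 were higher and 9 did not pass, where 3.71% of all probe sets and 15.3% of those with a control mean of at least 1000 were lower. Spata20 and Spata21 made up 3 of the 5. Their median log2 difference was -0.56, and all 14 differences were below 0. With the run as a block 11 of the 14 were lower, beside 9.17% of all probe sets and 32.3% of those with such a control mean. Besides Spag4, Spata20, Spata21 and Spata46 these included Spata6, Spata19, Spata33 and Spata31, none of which passed without the block. Their control signals differed between runs: control 3 was the highest control in 13 of the 14 probe sets, and was 0.42 (median log2) above control 1, where the median over all probe sets tested was -0.13 and over the brighter ones 0.20.

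Spata19 shows this pattern. It gave 9447, 9338 and 12950 in the controls, 9344 and 12412 at 8 h, and 6433, 6640 and 8377 at 4 d. Both arrays of run 3 before 4 d were the high ones, and the 4 d arrays lay below all controls. The log2 difference was -0.56 (SE 0.18; limma adjusted p = 0.0826), with -0.55, -0.49 and -0.63 in the runs, or limma adjusted p = 5.40e-05 once the run was a block.

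Spata33, which tethers the phosphatase calcineurin to sperm mitochondria, gave 4608, 4832 and 8172 in the controls, 4462 and 6793 at 8 h, and 2926, 3094 and 4755 at 4 d for probe set 1381924_at. Here the groups overlapped, since 4 d 3 exceeded control 1, but each 4 d array lay below the control of its own run (log2 -0.65, -0.64 and -0.78). The difference of -0.69 had a limma adjusted p of 0.150, or 5.76e-05 with the block. The other probe set of Spata33, 1385830_at, gave -0.62 (limma adjusted p = 0.130, or 0.000688 with the block), and the signals of the pair correlated with r = 0.978 over the 8 arrays.

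Spata6 was measured by a pair of probe sets as well. For 1368644_at the signals were 13775, 12934 and 16974 in the controls, 13151 and 17312 at 8 h, and 9490, 9477 and 12295 at 4 d, a log2 difference of -0.48 (limma adjusted p = 0.108, or 7.12e-05 with the block). For 1368643_at they were 9261, 7802 and 10621, then 8781 and 11240, then 6117, 6691 and 8442, a difference of -0.38 (limma adjusted p = 0.217, or 0.00334 with the block). The groups of the first did not overlap and those of the second did. Spata31, also known as acrosome expressed protein, gave 441, 429 and 300 in the controls, 488 and 404 at 8 h, and 251, 372 and 179 at 4 d (log2 -0.56, limma adjusted p = 0.219, or 0.0158 with the block).

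**Figure D2:**
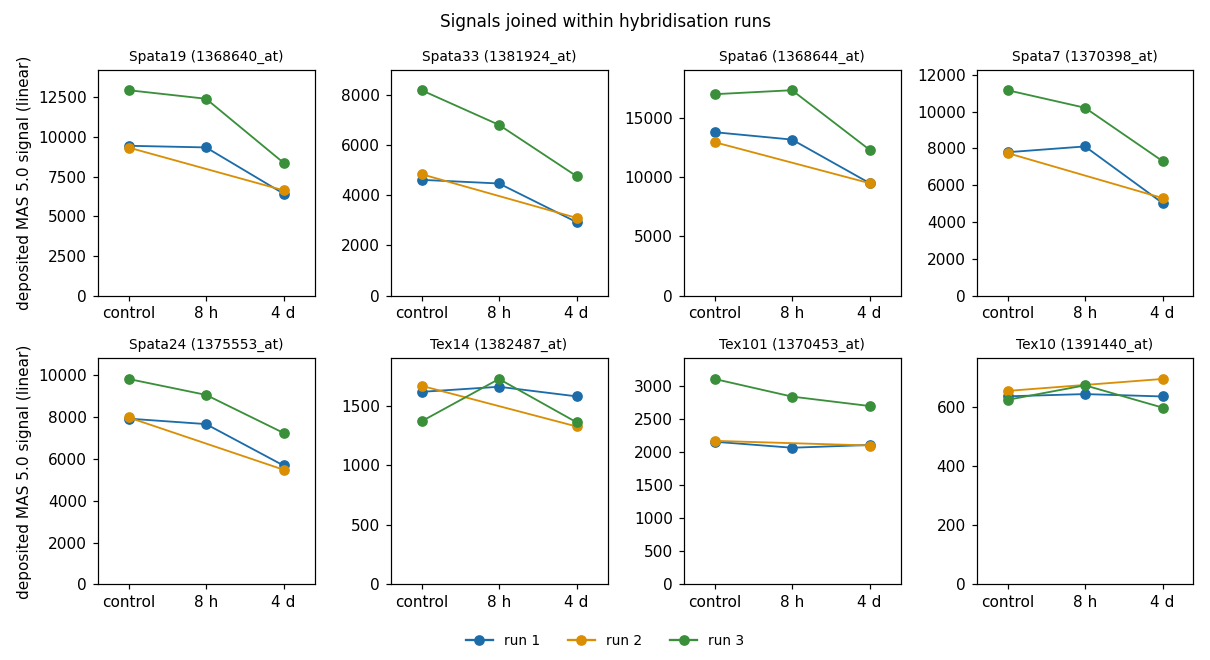
Deposited MAS 5.0 signal (linear axis from 0) of 8 member probe sets, with arrays of the same hybridisation run joined by a line from control over 8 h to 4 d; run 2 has no array at 8 h. For Spata19, Spata33, Spata6, Spata7 and Spata24 the line of run 3 (control 3, 8 h 2, 4 d 3) lies above the others and every line ends lower at 4 d; Spata19, for example, ends at 6433, 6640 and 8377. Tex14, Tex101 and Tex10 have smaller differences, which did not pass with or without the block.

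Tex101 and Spag16 of this group did not pass in either fit. Tex101, a surface protein of germ cells needed for fertile sperm, gave 2155, 2169 and 3103 in the controls and 2106, 2098 and 2695 at 4 d (log2 -0.094, SE 0.19; limma adjusted p = 0.833, or 0.386 with the block). For Spag16 the brighter probe set, 1385721_at, gave 1629, 1707 and 2404 in the controls and 1506, 1794 and 2467 at 4 d (log2 -0.0012, SE 0.22; limma adjusted p = 0.999). Its dim probe set, 1394336_at, gave 99.4, 117 and 126 against 81.1, 88.3 and 55.2 (log2 -0.53, SE 0.21; limma adjusted p = 0.155, or 0.0662 with the block). The groups did not overlap for the dim probe set and overlapped for the bright one, and the signals of the pair correlated with r = -0.19 over the 8 arrays.

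None of the 3 measured genes of meiosis and germ cell bridges passed at 4 d (0 lower, 0 higher, also with the block). Tex14, which keeps the bridges between germ cells open, gave 1619, 1670 and 1371 in the controls and 1581, 1328 and 1363 at 4 d (log2 -0.12, SE 0.13; limma adjusted p = 0.644). Tex15, which acts in meiotic repair and in silencing of transposons, gave 380, 321 and 405 against 307, 323 and 334 (log2 -0.18, SE 0.14; limma adjusted p = 0.499). Tex19.2, a germ cell gene found in rodents as one of a pair, gave 337, 308 and 418 against 320, 339 and 364 (log2 -0.043, SE 0.15; limma adjusted p = 0.916). All 3 overlapped between the control and 4 d arrays. Set against 8 h, the log2 differences of these 3 genes at 4 d were -0.265 to -0.210. None of these passed (limma adjusted p of 0.404 to 0.611). Whether these 3 genes differ in response from the sperm and spermatid group was not tested.

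Among the 15 probe sets of 10 genes with broad roles, 0 were lower and 0 higher at 4 d, and the median log2 difference was -0.016. With the run as a block 2 of the 15 were lower and 3 were higher, shares near the 9.17% and 13.3% of all probe sets. The lower ones were Spata7 and 1 probe set of Spata2L. Spata7, known as a protein of the photoreceptor cilium, gave 7795, 7750 and 11166 in the controls, 8110 and 10211 at 8 h, and 5036, 5305 and 7315 at 4 d (log2 -0.59, SE 0.19; limma adjusted p = 0.0902, or 8.65e-05 with the block). Its 4 d arrays all lay below the controls. The higher ones were Spag5, 1 of the 4 probe sets of Spag9 and 1 of the pair of Tex261.

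Spag5, also called astrin, which acts at the mitotic spindle, gave 965, 787 and 928 in the controls, 1040 and 1239 at 8 h, and 1206, 949 and 1355 at 4 d. Both 8 h arrays and 2 of the 3 arrays at 4 d were above every control. The log2 difference at 4 d was 0.37 (SE 0.16; limma adjusted p = 0.194, or 0.0179 with the block), with 0.32, 0.26 and 0.54 in the runs. Tex264 gave 390, 600 and 479 in the controls and 510, 618 and 628 at 4 d (log2 0.26, SE 0.17; limma adjusted p = 0.413), and Tex10 gave 636, 654 and 624 against 635, 694 and 598 (0.0077, SE 0.12; limma adjusted p = 0.982). Tex10 varied little between all arrays.

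Probe sets of 3 genes differed in the sign of their change at 4 d. For Spag9, 1388520_at gave 486, 385 and 322 in the controls, 601 and 475 at 8 h, and 693, 465 and 489 at 4 d (log2 0.45, SE 0.20; limma adjusted p = 0.222, or 0.0166 with the block). Its probe set 1382020_at gave 349, 192 and 65.6, then 280 and 119, then 252, 199 and 104 (0.051, SE 0.52). Probe set 1397618_at gave 266, 205 and 113, then 252 and 183, then 188, 203 and 126 (-0.12, SE 0.29), and 1394436_at gave 79.2, 63.3 and 39.5, then 79.4 and 32.0, then 48.5, 65.1 and 32.0 (-0.25, SE 0.34). Control 3 was the lowest control in all 4 probe sets of Spag9, and the last 3 did not pass with the block.

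For Tex261, a membrane protein of the early secretory pathway, 1373539_at gave 403, 401 and 278 in the controls, 378 and 323 at 8 h, and 575, 515 and 420 at 4 d. It was the only measured member whose 4 d arrays all lay above the controls (log2 0.47, SE 0.18; limma adjusted p = 0.155, or 0.0140 with the block); 17.4% of all probe sets were separated in that direction and 11.8% in the other, in which 13 member probe sets were. The other probe set, 1389557_at, gave 1209, 1279 and 1583 in the controls, 1183 and 1242 at 8 h, and 1261, 1340 and 1181 at 4 d (log2 -0.097, SE 0.13; limma adjusted p = 0.741). Their signals correlated with r = -0.41 over the 8 arrays.

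Spata2L, a relative of the adaptor Spata2 that links a deubiquitinase to the linear ubiquitin ligase, lies next to Spata33 in the RefSeq gene table, with 0 genes between them. Its probe set 1384589_at gave 98.6, 84.7 and 56.8 in the controls, 128 and 46.8 at 8 h, and 51.2, 12.8 and 44.0 at 4 d (log2 -0.95, SE 0.41; limma adjusted p = 0.195, or 0.0467 with the block). The 4 d arrays were all below the controls, but the run values ranged from -0.28 in run 3 to -1.81 in run 2. Probe set 1381230_at gave 77.9, 53.0 and 7.10, then 35.8 and 21.5, then 41.0, 41.5 and 32.6 (log2 0.030, SE 0.47), and reached 50 only on 2 control arrays. Spata2 itself gave 210, 211 and 100 in the controls and 175, 207 and 120 at 4 d for 1398274_at (log2 -0.016, SE 0.29; limma adjusted p = 0.985).

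Of 9 probe sets of 8 genes without a role given here, Tex46 and Tex13c3 were lower and 7 did not pass. Of all probe sets tested 3.71% were lower, and of those with a control mean of at least 1000 15.3% were. With the run as a block 6 of the 9 were lower, beside 9.17% and 32.3%. Spata24 gave 7936, 7994 and 9834 in the controls and 5693, 5491 and 7251 at 4 d for 1375553_at (log2 -0.49, SE 0.15; limma adjusted p = 0.0758, or 0.000166 with the block). Its other probe set, 1398444_at, gave -0.37 (adjusted p = 0.461, or 0.0103 with the block in limma). Spata1 gave 6356, 5782 and 7712 against 5190, 4886 and 6072 (log2 -0.29, limma adjusted p = 0.268, or 0.00430 with the block). Tex56p gave 1557, 1690 and 1141 against 1049, 1250 and 849 (log2 -0.47, limma adjusted p = 0.155, or 0.00320 with the block). Tex30, Spag7 and Spata9 did not pass in either fit, with log2 differences of -0.24, -0.061 and -0.069.

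The 22 measured probe sets with a control mean of at least 1000 held 6 of the 7 calls (27.3% lower), and 16 of 22 were lower with the run as a block. Among all 2557 probe sets with such a control mean, 15.3% were lower without and 32.3% with the block, and their median log2 difference was -0.11, against -0.48 for the 22. Over the 41 probe sets, the mean log2 signal and the 4 d difference correlated with Pearson r of -0.28 and Spearman rho of -0.39, a description across probe sets that share arrays, groups and, in part, genes.

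**Figure D3:**
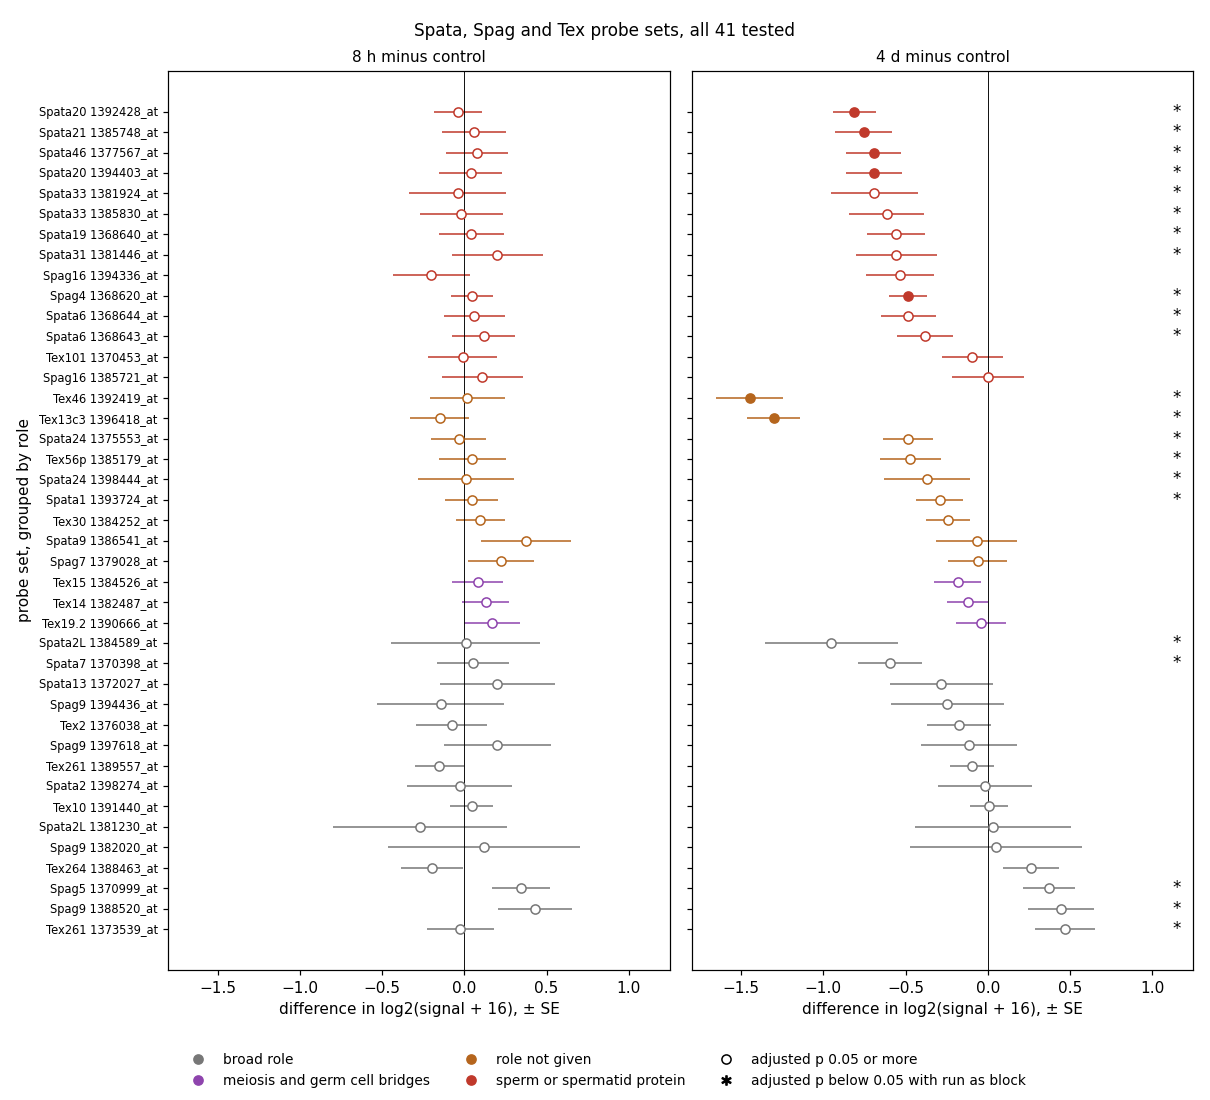
Difference in log2(signal + 16) from control at 8 h (left) and 4 d (right) for the 41 measured probe sets, with SE bars, coloured by role; filled points have a limma adjusted p below 0.05 with no block, and an asterisk marks those below 0.05 in the fit blocked by run. At 8 h no point is filled and none has an asterisk; at 4 d 7 points are filled, from -1.45 for Tex46 to -0.49 for Spag4, and 22 have an asterisk.

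At 8 h, 0 of the 41 measured probe sets were lower and 0 were higher in limma, with and without the run as a block, and 0 had an unadjusted p below 0.05. Few genes passed at that time on the whole array: 0% of all probe sets were lower and 0.0656% higher, or 0.0101% and 0.268% with the block. The log2 differences of the measured members ran from -0.27 to 0.43 with a median of 0.045, where the median of all probe sets was -0.015. Spag5 had the smallest p, with a log2 difference of 0.35 (SE 0.18; unadjusted p = 0.0804 in limma). For the 6 genes that were lower at 4 d the differences at 8 h lay between -0.15 for Tex13c3 and 0.077 for Spata46.

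Between both treated groups, 6 probe sets were lower at 4 d than at 8 h and 0 were higher, beside 2.47% and 3.58% of all probe sets tested. They were Tex46 (log2 -1.47, SE 0.23; limma adjusted p = 0.00679), Tex13c3 (-1.15; 0.00675), Spata21 (-0.81; 0.0382), 1392428_at of Spata20 (-0.77; 0.0149), Spata46 (-0.77; 0.0406) and Spag4 (-0.53; 0.0385). This comparison shares the 4 d arrays with that against control. In the blocked fit 17 were lower and 1, Tex261 1373539_at, was higher (7.08% and 8.55% of all probe sets). The count of 6 fell to 2 without 4 d replicate 1 (0.788% of all probe sets lower) and to 3 without control replicate 2 (1.73%). It fell to 1 without the arrays of run 2 (0.712%). Without 8 h replicate 2, which leaves 1 array at 8 h, the 6 log2 differences ran from -1.35 to -0.44.

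Markers of the cells of the testis were measured beside the members. Of 13 markers of elongating spermatids, such as Fscn3, an actin-bundling protein, and Gapdhs, the glycolytic enzyme of the sperm tail, 6 were lower at 4 d and 0 higher, with a median log2 difference of -0.55 and 13 lower with the run as a block; their summed signal lay between 140378 and 209294 in the controls, 145207 and 187785 at 8 h, and 97939 and 137274 at 4 d. Of 7 measured round spermatid markers 4 were lower (median -0.55), among them Spaca3, an acrosome protein, and Tssk2, a kinase of spermatids; their summed signal went from 23411 to 26726 in the controls to 16439 to 17855 at 4 d. None (0) of the 9 spermatocyte and 4 spermatogonium markers passed in limma (medians -0.093 and -0.031), and with the block 1 spermatocyte marker was lower and 1 spermatogonium marker was higher. Of 8 leukocyte markers 6 were higher and 1 lower, with a summed signal of 4527 to 4897 in the controls and 6354 to 8259 at 4 d. Of 11 Sertoli cell markers 2 were higher and 1 lower, with log2 differences of -1.50 to 0.97 (median 0.30). Their summed signal was 13684 to 15710 in the controls and 20182 to 26114 at 4 d. Among the other lists without the block, 2 of 9 Leydig cell and 1 of 6 peritubular cell markers were higher and 0 lower. There 0 of 4 endothelial markers passed. With the run as a block 6 round spermatid markers were lower and 0 higher. In that fit 7 leukocyte, 4 Sertoli, 5 Leydig, 2 peritubular and 1 endothelial marker were higher. Lower in it were 1 leukocyte, 2 Sertoli, 1 Leydig and 1 peritubular marker. Of all probe sets tested 3.71% were lower and 6.13% higher, or 9.17% and 13.3% with the block. Of 6 genes listed for the epididymis only Cst8 reached the minimum; it is also known from spermatids, so it does not mark the epididymis here, and it was lower (log2 -0.81). The part of these shifts in the members' differences was not tested.

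The remaining 5 probe sets of the families stayed below the minimum. Spag11a, which belongs to the epididymis and encodes a defensin-like protein, reached 50 on 1 array, 8 h 1 (59.4), and lay between 4.60 and 43.2 on the others. A pair of probe sets of Spata13 and 1 each of Spata2 and Spata2L did not reach 50 on any array. The tested probe set of Spata13, a guanine nucleotide exchange factor, was also dim, with 58.9, 112 and 68.6 in the controls and 53.8, 74.5 and 55.1 at 4 d (log2 -0.28, SE 0.31; limma adjusted p = 0.671). Tex2, a lipid transfer protein, gave 1872, 1713 and 1500 against 1726, 1707 and 1131 (log2 -0.17, SE 0.19; limma adjusted p = 0.675).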

How the data were processed

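The deposited values are MAS 5.0 signal intensities, 1 linear value per probe set, and this is stated per the labels, whose design text also names GeneSpring 7.2; other settings are not given in the sources used here. RNA was taken from frozen tissue with Trizol, per the labels' protocols. The array settings files, per the file headers, were read for the hybridisation date and fluidics protocol. The 57 control probe sets were left out of 31099. The 19808 probe sets that reached a signal of 50 on 2 arrays or more were fitted as log2(signal + 16) with limma 3.58.1 in R 4.3.3 (lmFit, eBayes with a trend) over all 8 arrays, with Benjamini-Hochberg adjustment over all of them. In simulated data for 4 d against control, the fit found 53.4% of the probe sets changed by a log2 of 1 and 93.6% of those changed by 2. For 8 h against control these were 37% and 89.8%, and for 4 d against 8 h 37% and 90.4%. The changed probe sets were drawn only from those well above the signal minimum. The simulated noise was independent between arrays, with no effect of the run. Most member differences were smaller than a log2 of 1, and no rate was simulated for such changes.

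Control and 4 d arrays with the same number in their titles share a hybridisation date, so the numbers pair them. Deviations from group means correlated at 0.353 to 0.506 between arrays of the same run and at -0.475 to 0.246 between others. Such deviations sum to 0 within a group, so the second range is in part fixed by the first and is no separate evidence. Given the first range, values with the run as a replicate block stand beside the others. Gene symbols came from the platform annotation, and all 32 gene identifiers matched the RefSeq table. Detection calls were not used here. The members, roles and lists were chosen with earlier results of these data known, and roles and promoter motifs after the members' values were seen. Values on every array are given for members past the threshold, for the 5 with the highest control means, for the smallest p at 8 h and for genes whose probe sets differ in sign; those of further members are given to describe each role. Markers named are among those with the smallest p of their list at 4 d.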

Additional observations from a re-analysis of the deposited data

Results flagged for a closer look

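For 6 member probe sets the difference between the effects at the 2 times passed (limma, Benjamini-Hochberg). This difference is the comparison of 4 d against 8 h already given above, with the same values, and no further test. The log2 differences were -1.47 for Tex46, -1.15 for Tex13c3, -0.81 for Spata21, -0.77 for Spata20 (1392428_at, -0.772), -0.77 for Spata46 (-0.771) and -0.53 for Spag4. Both treated groups were set against the same 3 controls. Groups of 3 or fewer arrays were not tested for single outlying arrays.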

How the results depend on the processing

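At 4 d against control there were 7 lower calls, where 3.71% of all probe sets tested were lower. They became 2 with medians equalised (2.09% of all probe sets), 11 with quantile normalization (4.97%) and 3 without the trend in eBayes (2.77%). With the replicate block by run they became 19 (9.17%), and with the replicate block by number 16 (6.95%). They were 2 (0.89%) without the arrays of run 2 and 14 (4.52%) without those of run 3, 2 alternatives chosen after seeing the data. The 0 higher calls became 3 with the block by run and 2 with the block by number, beside 2632 and 2116 of the 19808 probe sets tested. Leaving out 1 control or 4 d array at a time gave 3 to 7 lower calls, beside 1.61% to 3.17% of all probe sets. The 6 lower calls at 4 d against 8 h became 3 with no signal minimum, 2 with medians equalised, 10 with quantile normalization, 3 without the trend, 17 with the block by run, 16 with the block by number, 1 without run 2 and 12 without run 3, and 0 to 7 with 1 array left out; the 0 higher calls became 1 with either block. At 8 h against control 0 calls were made under every alternative. No called difference changed sign under any alternative, and within each run all 7 probe sets kept their direction at 4 d, from -1.61 to -0.35. The cause of these shifts was not tested. The number of arrays limits the precision. Some probe sets of Spata2L and Spag9 have standard errors of up to 0.52 at 4 d against control and 0.58 in the comparisons with 8 h.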
